A study of Homo sapiens with 66 samples.

Results

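The 50 genes described here were taken from a list of 32 genes of DNA replication and 18 genes of mitosis, out of 60603 gene rows counted in each library. The genes were chosen by name and function, with earlier results of these data known, and the rule itself used no measured value. Expression was measured by bulk RNA sequencing in H9, an established line of human embryonic stem cells (hESCs), and in its derivatives, with 66 libraries in 22 groups of 3. The groups were undifferentiated hESCs, human neuromesodermal progenitors (hNMP) on days 1 to 4 (D1 to D4), the neural determination stage (NeuDet) on days 1 to 6, human spinal cord neural progenitor cells (hSCNPCs) at passages 5, 10, 20, 30 and 40 (P5 to P40), and human motor neurons (hMN) on days 6, 12, 18, 24, 30 and 42. No label named a genetic change. By the methods of the study, cells spent their first day after plating in stem cell medium, hNMP medium held FGF2, CHIR99021, SB431542 and Dorsomorphin, NeuDet medium added FGF8 and Compound E, hSCNPC medium held SB431542, CHIR99021 and Purmorphamine, and hMN medium held Purmorphamine, Compound E (a γ-secretase inhibitor), BDNF, GDNF and NT-3. All libraries came from 1 cell line, and whether libraries of 1 group were separate cultures was not stated, so p-values measure the spread between these libraries, which may be technical.

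Cells copy their DNA in S phase and part the copies in mitosis. Before S phase, ORC, CDC6 and CDT1 load the MCM2 to MCM7 ring onto origins. CDC45 and the GINS complex then turn the ring into the active helicase, and polymerases, the PCNA clamp, its RFC loader and the enzymes of nucleotide supply copy the strands. Mitosis is driven by CDK1 with cyclin B and by the Aurora and Polo kinases, is held in check by BUB1, BUB1B and TTK, and is ended by CDC20 with the anaphase-promoting complex. Genes of the first set are classic targets of E2F factors. Many genes of the second set carry CCAAT boxes and a cell cycle genes homology region (CHR). MYBL2 (B-MYB) and FOXM1 act through the CHR. Neural progenitors divide, and postmitotic neurons leave the cycle.

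Promoters of the listed genes were read from RefSeq (GRCh38.p14), from 250 bases before to 50 bases after the start of each gene. Of the 50 genes, 43 had an entry, 29 of replication and 14 of mitosis. On either strand, an E2F motif (TTTCCCGC, TTTGGCGC, TTTCGCGC or TTTGCCGC) was found in 17 of 29 replication promoters (58.6%), in 3 of 14 mitosis promoters (21.4%) and in 3.33% of all 27305 promoters. A CHR motif (TTTGAA or TTTAAA) was found in 2 of 29 replication promoters (6.9%), in 12 of 14 mitosis promoters (85.7%) and in 24.3% of all promoters. CCAAT was found in 18 of 29 replication promoters (62.1%), in 12 of 14 mitosis promoters (85.7%) and in 35.7% of all promoters. None of these motifs contains another, and TTTAAA reads the same on both strands. Both an E2F and a CHR motif were present in 0 replication promoters, in 3 mitosis promoters (CDK1, CENPA and NUSAP1) and in 0.535% of all promoters. The 2 replication promoters with a CHR motif were those of RRM1 and RRM2, both subunits of ribonucleotide reductase. These matches describe letters within 300 bases and not sites of binding. The promoters of 4 genes followed through the text are shown to contrast the 2 sets, with E2F motifs in capitals for PCNA and CDC6 and CHR motifs in capitals for CDC20 and TOP2A. PCNA lies at chr20:5126573-5126872 on the minus strand, CDC6 at chr17:40287629-40287928 on the plus strand, CDC20 at chr1:43358731-43359030 on the plus strand and TOP2A at chr17:40417847-40418146 on the minus strand. In the lower lines TTCAAA is the CHR motif TTTGAA read on the opposite strand, and in the PCNA line GCGGGAAA is TTTCCCGC on the opposite strand.
PCNA: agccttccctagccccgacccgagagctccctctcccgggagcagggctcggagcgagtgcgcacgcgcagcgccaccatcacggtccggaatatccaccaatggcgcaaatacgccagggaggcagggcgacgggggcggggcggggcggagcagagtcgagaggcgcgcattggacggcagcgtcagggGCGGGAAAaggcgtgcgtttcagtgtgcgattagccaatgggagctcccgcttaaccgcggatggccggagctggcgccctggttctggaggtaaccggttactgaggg
CDC6: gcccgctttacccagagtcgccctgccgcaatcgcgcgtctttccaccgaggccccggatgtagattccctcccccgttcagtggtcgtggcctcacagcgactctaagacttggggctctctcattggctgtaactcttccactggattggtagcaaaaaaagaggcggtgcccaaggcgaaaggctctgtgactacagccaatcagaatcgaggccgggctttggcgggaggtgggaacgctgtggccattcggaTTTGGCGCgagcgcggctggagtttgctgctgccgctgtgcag
CDC20: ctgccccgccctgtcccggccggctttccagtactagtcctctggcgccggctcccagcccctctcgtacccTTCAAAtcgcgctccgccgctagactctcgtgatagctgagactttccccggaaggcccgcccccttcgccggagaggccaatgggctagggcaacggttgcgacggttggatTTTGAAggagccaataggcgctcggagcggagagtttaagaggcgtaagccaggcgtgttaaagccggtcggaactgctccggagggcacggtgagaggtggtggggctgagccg
TOP2A: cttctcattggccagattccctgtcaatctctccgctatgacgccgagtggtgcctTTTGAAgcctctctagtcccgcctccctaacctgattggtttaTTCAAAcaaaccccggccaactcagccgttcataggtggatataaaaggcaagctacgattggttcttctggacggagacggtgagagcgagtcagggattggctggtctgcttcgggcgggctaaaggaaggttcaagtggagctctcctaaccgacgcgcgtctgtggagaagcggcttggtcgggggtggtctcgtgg

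Library totals ran between 14142238 and 40204753 counts, with a median of 20676228. NeuDet libraries were deepest, with a median of 30488154, against 19220718 in hESC, 20042550 in hNMP, 18909700 in hSCNPC and 19517222 in hMN. Comparisons of NeuDet with hNMP or hSCNPC thus also cross a change in depth. Levels are given as CPM (the count of a gene divided by its library's effective size and scaled to 1e6) after TMM scaling and tests as edgeR's quasi-likelihood test with Benjamini-Hochberg adjustment over all genes, called at an adjusted p under 0.05, with fold changes on the log2 scale ± SE. A mean level is given ± SD over the 3 libraries of a group. The hMN libraries came in a table of their own, so table and cell type cannot be told apart in any comparison of hMN with hSCNPC. No library was labelled as hMN day 0, and hSCNPC-P10 stood in for it. Labels were checked against defining markers: 153 ± 22.9 CPM of POU5F1 in hESC, 533 ± 14 CPM of PAX6 in hSCNPC-P10, and a summed level of 8 motor neuron genes between 74.5 and 77.3 CPM in hMN-D6, against 8.77 to 9.85 CPM in hSCNPC-P10. TBXT, which defines neuromesodermal progenitors, was low in hNMP-D4 at 4.28 ± 1.67 CPM, and POU5F1 was still at 46.1 ± 6.06 CPM there. The NeuDet-D6 libraries had 0.159 ± 0.0661 CPM of the neural progenitor gene PAX6.

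All 50 genes passed the filter on low counts in both fits, but not all were equally measurable. NUSAP1, a spindle-binding protein, had under 1 CPM in 20 of 22 groups, and 86.8% of its exon length lies under other annotated genes. An overlapping readthrough gene held 2 counts over the 66 libraries and NUSAP1 1154, and its values are treated as uncertain. Another 9 genes share 10% or more of their exon length with another gene, among them TYMS (47.9%), MCM8 (33.3%) and MCM2 (23.6%). Per kilobase of exon, PCNA was the highest replication gene in hSCNPC-P10 at 193 CPM per kb, and TPX2, an activator of Aurora A at the spindle, the highest mitosis gene at 151 CPM per kb. In hMN-D6 the highest were MCM7, a subunit of the replicative helicase, at 28.4 CPM per kb and TPX2 at 4.06 CPM per kb.

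Both sets were abundant in every group before hMN and low in every hMN group. As a summed level, the 32 replication genes had 642, 635 and 639 CPM in the hMN-D6 libraries, against 3659, 3487 and 3692 CPM in the hSCNPC-P10 libraries. The 18 mitosis genes had 87.7, 93.1 and 85.4 CPM in hMN-D6, against 3276, 3198 and 3218 CPM in hSCNPC-P10. Between hESC and hSCNPC-P40 the sum over replication genes was lowest in hNMP-D3, at 2947 ± 63.4 CPM, and highest in NeuDet-D4, at 5960 ± 88.7 CPM. The sum over mitosis genes was highest in NeuDet-D5, at 5177 ± 120.0 CPM. Its lowest mean was that of hNMP-D4, with 3157, 3012 and 2203 CPM in the 3 libraries, and rested on the third, the other 2 lying within the range of hNMP-D3 at 2862, 2964 and 3162 CPM. In these bulk samples fewer dividing cells and less RNA of these genes per dividing cell cannot be told apart.

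To weigh each gene alike, the mean of log2(CPM + 0.5) over the genes of a set was taken relative to hESC. Replication genes stood at 0.32 in hNMP-D1, -0.29 in hNMP-D3, 0.26 in NeuDet-D1, 0.57 in NeuDet-D3 and 0.17 in NeuDet-D6. Mitosis genes stood at -0.15, -0.43, -0.22, -0.05 and 0.07 in the same groups. Among hSCNPCs, replication genes were at -0.02, -0.14, -0.09, 0.31 and 0.23 from P5 to P40, and mitosis genes at -0.34, -0.46, -0.52, -0.41 and -0.29. The highest replication mean was 0.57 in NeuDet-D3 and 0.57 in NeuDet-D4, which did not differ beyond their spread, and the highest mitosis mean 0.27 in NeuDet-D5. The lowest mitosis mean before hMN was that of hSCNPC-P20. The difference between them (replication minus mitosis) lay between 0.10 in NeuDet-D6 and 0.72 in hSCNPC-P30 over the differentiating and passaged groups, with SDs of up to 0.12, and between 1.36 and 2.37 over the hMN groups. These set means are descriptions and were not tested.

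**Figure D1:**
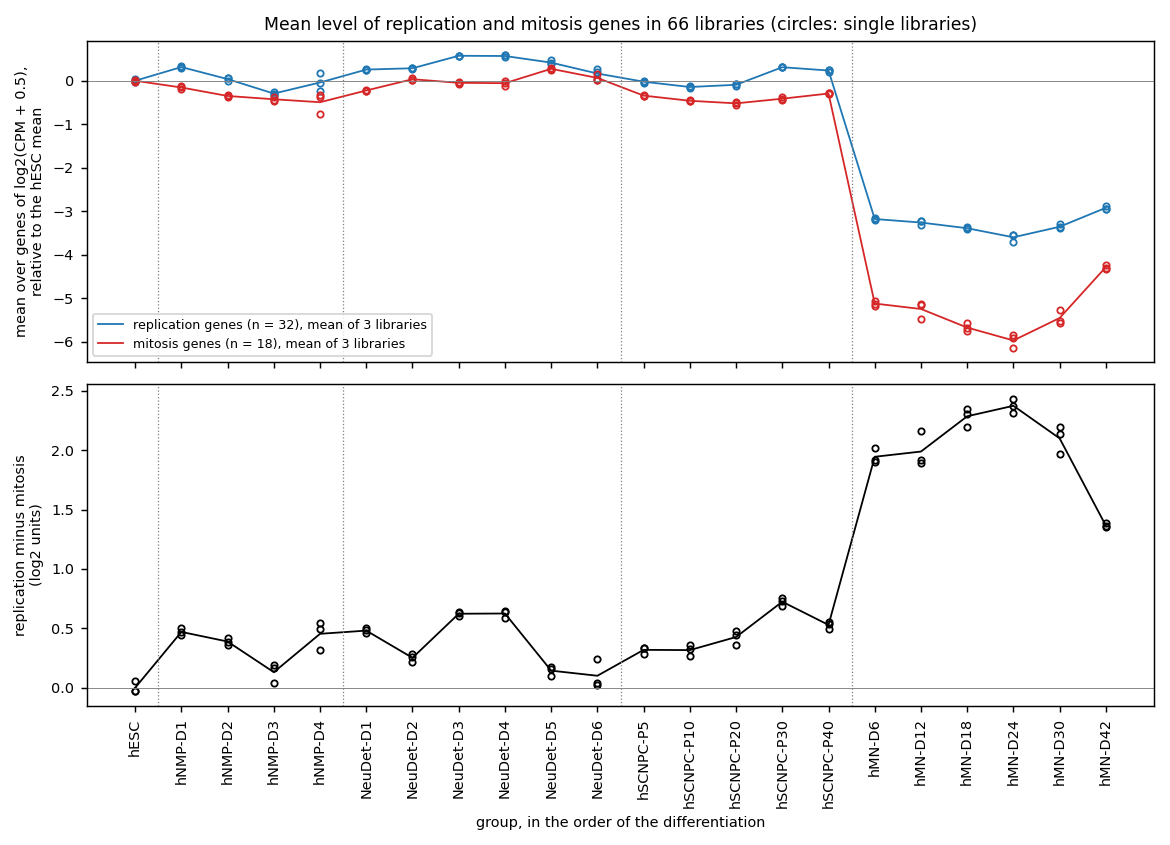
The upper panel shows the mean over genes of log2(CPM + 0.5) for 32 replication genes (blue) and 18 mitosis genes (red) relative to hESC, and the lower panel their difference, with 1 circle per library, a line through the means of 3 libraries and dotted lines between stages. At hMN-D24 the blue line is at -3.60 and the red line at -5.97, and at hMN-D42 they are at -2.92 and -4.29.

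Which group held the highest mean level differed between the sets. Of 32 replication genes, 9 were highest in NeuDet-D4, 7 in NeuDet-D3 and 6 in hNMP-D1. Of 18 mitosis genes, 8 were highest in NeuDet-D5, 3 in NeuDet-D6, 2 in hESC and 2 in hNMP-D1. BUB1 was highest in hNMP-D3 and CDT1, the licensing factor, in hSCNPC-P40. Before hMN the highest group mean exceeded the lowest by a median of 2.35-fold over replication genes, between 1.51-fold for RFC4 and 5.12-fold for MCM2, and by a median of 2.38-fold over mitosis genes, between 1.67-fold for PLK1 and 6.5-fold for BUB1. Across the means of the 16 groups before hMN, 24 of 32 replication genes and 14 of 18 mitosis genes correlated more with the mean of the other genes of their own set than with the other set. The median r of replication genes was 0.69 with replication and 0.419 with mitosis, and that of mitosis genes was 0.605 with mitosis and 0.472 with replication. These are correlations over 16 group means that share libraries and scaling, given as a description.

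**Figure D2:**
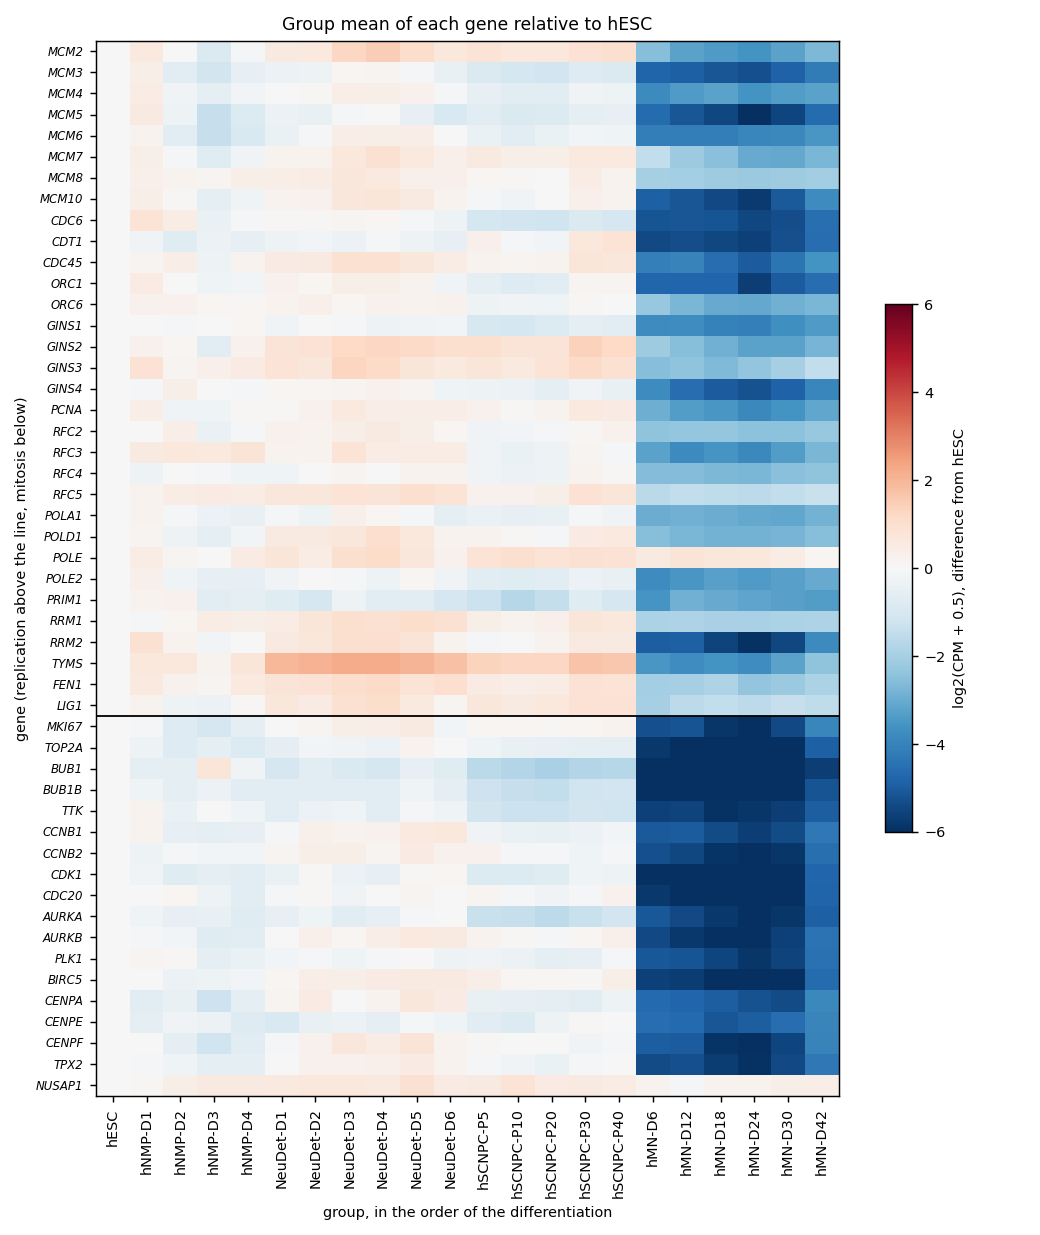
Each cell gives the group mean of 1 gene as log2(CPM + 0.5) minus its hESC value, with genes in rows (replication above the line, mitosis below) and the 22 groups in columns in the order of differentiation; colours saturate at 6 log2 units. The hMN columns are blue for all rows except POLE and NUSAP1, which are pale. POLE averaged 99.86 CPM in hESC and between 106.6 and 168.5 CPM in the hMN groups, above its hESC level in each. NUSAP1 averaged 0.416 CPM in hESC and between 0.340 and 0.697 CPM in the hMN groups. TYMS is red from hNMP to hSCNPC.

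In hNMP-D1, replication genes were mostly higher than in hESC and mitosis genes were not. This was the first group after hESC, and the comparison was added after the values were seen. By the study's methods, cells were plated singly and spent this first day in stem cell medium, before hNMP medium was given. Of 32 replication genes, 21 rose and 2 fell, where 20.3% of all genes tested rose and 26.7% fell. Of 18 mitosis genes, 1 rose and 7 fell. RRM2, the regulated subunit of ribonucleotide reductase, had 223, 230.3 and 224 CPM in hNMP-D1, against 119.5, 121 and 122 CPM in hESC. It was 1.85-fold higher (0.88 ± 0.06, adjusted p = 8.6e-19). CDC6, which loads the helicase, had 198, 189 and 194 CPM in hNMP-D1, against 111, 115 and 107 CPM in hESC (0.79 ± 0.07, adjusted p = 1.78e-13). Neither gene's libraries overlapped between the groups. RRM2 was among the replication genes named for the largest rise, so for RRM2 this adds no support. GINS3 (0.87 ± 0.11, adjusted p = 1.17e-09), TYMS (0.61 ± 0.08, adjusted p = 8.38e-09), which makes dTMP, MCM2 (0.59 ± 0.10, adjusted p = 6.92e-06) and PCNA (0.38 ± 0.08, adjusted p = 4.38e-05) rose as well. The 2 that fell were RFC4, a clamp loader subunit (-0.34 ± 0.07, adjusted p = 2.31e-05), and CDT1 (-0.24 ± 0.07, adjusted p = 0.00552).

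Among the mitosis genes, CENPA, the histone H3 variant of centromeres, had 14.6, 19 and 17.4 CPM in hNMP-D1, against 27, 28.7 and 27.1 CPM in hESC (-0.72 ± 0.12, adjusted p = 3.3e-06). BUB1, a checkpoint kinase, fell too (-0.60 ± 0.08, adjusted p = 1.33e-08), as did TOP2A, the topoisomerase that parts sister chromatids (-0.32 ± 0.08, adjusted p = 0.000683). CCNB1 (cyclin B1) alone passed upwards (0.19 ± 0.07, adjusted p = 0.0178). The proliferation marker MKI67 had 407, 383 and 374 CPM in hNMP-D1 and 316, 474 and 463 CPM in hESC and did not pass (adjusted p = 0.605), its lowest hESC library lying below all of hNMP-D1. By role, 7 of 8 genes of the MCM group rose, while 1 of 4 GINS genes did. Outside the 50 genes, 15 of 30 other replication genes rose and 2 fell, and 10 of 39 other mitosis genes rose and 15 fell. Of all genes tested 20.3% rose and 26.7% fell. Of the pluripotency markers POU5F1 was not called, and 2 of 6 rose.

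By hNMP-D4 the replication genes no longer leaned one way against hESC. Of 32, 8 rose and 11 fell, against 26.7% and 27.6% of all genes tested, and the median change was -0.08. Of 18 mitosis genes, 16 fell and 1 rose, with a median of -0.60. The gene that rose was the uncertain NUSAP1 (1.02 ± 0.41, adjusted p = 0.0319). TOP2A had 447, 420.4 and 279 CPM in hNMP-D4, against 646, 685 and 688 CPM in hESC (-0.81 ± 0.08, adjusted p = 1.16e-12). CENPE, the kinetochore motor, had 79.5, 74.1 and 70.3 CPM in hNMP-D4, against 124, 126 and 128 CPM in hESC (-0.75 ± 0.08, adjusted p = 1.38e-11). CDK1 (-0.68 ± 0.13, adjusted p = 1.82e-05), CDC20 (-0.63 ± 0.08, adjusted p = 2e-09), CCNB1 (-0.49 ± 0.07, adjusted p = 9.41e-09) and MKI67 (-0.58 ± 0.17, adjusted p = 0.00458) fell with them. Of the replication genes, the helicase subunits MCM6 (-0.92 ± 0.10, adjusted p = 2.16e-10) and MCM5 (-0.82 ± 0.13, adjusted p = 8.15e-07) fell most, and RFC3 (0.76 ± 0.06, adjusted p = 4.14e-15) and TYMS (0.73 ± 0.08, adjusted p = 3.46e-11) rose most. MCM2, PCNA, CDC6 and RRM2 were not called, with adjusted p between 0.221 and 0.567.

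One library stood apart in this group. In hNMP-D4 replicate 3, MKI67 was at 161 CPM where the other 2 had 334 and 340.2 CPM, and MCM2 at 87.0 CPM where they had 159 and 132 CPM. Without it, 14 mitosis genes fell and 0 rose, and 10 replication genes rose and 8 fell. Of all 22057 genes tested in that fit, 5198 rose and 5763 fell. When hNMP-D4 and hESC were fitted alone, 10 mitosis genes and 7 replication genes fell, as did 4361 of all 17860 genes tested. The replication count was thus not above the share of all genes. Other mitosis genes followed the 18, with 27 of 39 falling and 2 rising, and the mitotic regulators MYBL2 (-0.62 ± 0.12, adjusted p = 2.01e-05) and FOXM1 (-0.32 ± 0.08, adjusted p = 0.000378) fell. Of 7 CDK inhibitors 4 rose, among them CDKN1A (p21), with 1.07 ± 0.08, adjusted p = 1.63e-16.

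Day 3 was compared with day 2 of the hNMP stage after the values were seen. In hNMP-D3, 19 of 32 replication genes were lower than in hNMP-D2 and 2 were higher, where 22.3% of all genes fell and 23.7% rose. MCM5 had 109, 99.7 and 102 CPM in hNMP-D3, against 208, 232 and 228 CPM in hNMP-D2 (-1.09 ± 0.13, adjusted p = 8.28e-09). PRIM1, the catalytic subunit of primase (-0.94 ± 0.11, adjusted p = 1.02e-10), MCM2 (-0.86 ± 0.11, adjusted p = 7.34e-09) and CDC6 (-0.81 ± 0.07, adjusted p = 1.03e-13) fell likewise, while CDT1 (0.39 ± 0.07, adjusted p = 1.85e-05) and RRM1 (0.36 ± 0.05, adjusted p = 1.37e-07) rose. PCNA was at 212, 219 and 214 CPM in hNMP-D3 and 208, 221 and 228 CPM in hNMP-D2 and did not pass (adjusted p = 0.944).

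Of 18 mitosis genes 4 rose and 6 fell at that step, where 23.7% of all genes rose and 22.3% fell. All 3 checkpoint kinases rose, and CENPA (-0.79 ± 0.13, adjusted p = 2.24e-06), PLK1 (-0.65 ± 0.10, adjusted p = 4.17e-07) and CDC20 (-0.45 ± 0.08, adjusted p = 5.3e-06) were among those that fell. BUB1 had 404, 399 and 437 CPM in hNMP-D3, against 178, 168 and 174 CPM in hNMP-D2 (1.27 ± 0.08, adjusted p = 7.79e-19), and its 3 libraries on day 3 were its highest values of the series. TTK, another checkpoint kinase, rose by less (0.41 ± 0.08, adjusted p = 3.24e-05). BUB1 had 166, 214 and 260.4 CPM in hNMP-D4, where replicate 3 was lowest in MKI67 and highest in BUB1, and 126, 123 and 119 CPM in NeuDet-D1.

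On the first day of neural determination both sets were higher than in hNMP-D4. Of 32 replication genes 21 rose and 2 fell, and of 18 mitosis genes 11 rose and 3 fell, where 25.4% of all genes rose and 30.5% fell. TYMS had 132, 136 and 128 CPM in NeuDet-D1, against 63.9, 56.4 and 41.1 CPM in hNMP-D4 (1.27 ± 0.08, adjusted p = 6.45e-21). It stayed above its hESC level of 31.8, 33 and 32.8 CPM in every later group before hMN. POLD1, the catalytic subunit of polymerase δ (0.70 ± 0.08, adjusted p = 6.13e-10), MCM2 (0.61 ± 0.10, adjusted p = 2.28e-06) and RRM2 (0.55 ± 0.06, adjusted p = 1.71e-12) rose. RFC3 (-0.56 ± 0.06, adjusted p = 4.86e-11) and GINS1 (-0.35 ± 0.07, adjusted p = 2.35e-05) fell. Of the mitosis genes, CENPA (0.76 ± 0.12, adjusted p = 2.38e-07) and the passenger kinase AURKB (0.65 ± 0.10, adjusted p = 2.52e-07) rose most, and BUB1 (-0.83 ± 0.08, adjusted p = 4.36e-13) and TTK (-0.38 ± 0.08, adjusted p = 4.69e-05) fell most. Without the hNMP-D4 library that stood apart, 15 replication genes and 7 mitosis genes rose. In that fit 4807 of all 22057 genes tested rose.

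Over the 6 days of neural determination the sets leaned in opposite directions. In NeuDet-D6, 6 replication genes were higher and 15 lower than in NeuDet-D1, and 10 mitosis genes were higher and 0 lower. Among all genes tested 26.3% were higher and 28.3% lower. CCNB1 had 442, 412 and 396 CPM in NeuDet-D6, against 254, 257 and 244 CPM in NeuDet-D1 (0.70 ± 0.07, adjusted p = 1.4e-13). CENPE (0.61 ± 0.08, adjusted p = 2.33e-09), TOP2A (0.59 ± 0.08, adjusted p = 6.9e-09) and CDK1 (0.47 ± 0.12, adjusted p = 0.00117) rose, and MKI67 did not pass (-0.20 ± 0.17, adjusted p = 0.348). MCM5 had 135, 156 and 138 CPM in NeuDet-D6, against 204, 209 and 219.5 CPM in NeuDet-D1 (-0.58 ± 0.12, adjusted p = 0.000129). LIG1, the ligase that seals Okazaki fragments (-0.53 ± 0.07, adjusted p = 5.22e-09), CDC6 (-0.39 ± 0.07, adjusted p = 5.04e-06) and RRM2 (-0.37 ± 0.06, adjusted p = 8.76e-08) fell.

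Not all replication genes followed. RFC4 (0.45 ± 0.06, adjusted p = 2.33e-08), RRM1 (0.44 ± 0.05, adjusted p = 2.35e-10) and PCNA (0.31 ± 0.08, adjusted p = 0.000536) rose. Of 32 replication genes, 20 had their highest mean of the 22 groups between NeuDet-D2 and NeuDet-D5. MCM7 averaged 453 ± 17.5 CPM in NeuDet-D1, 735 ± 4.53 CPM in NeuDet-D4 and 484 ± 37.4 CPM in NeuDet-D6, and MCM2 195 ± 5.38, 378 ± 19.9 and 209 ± 16.2 CPM on the same days. These intermediate days were not tested. Of the other lists, 24 of 39 other mitosis genes rose and 5 fell, where 26.3% of all genes rose and 28.3% fell. Of 30 other replication genes 9 rose and 10 fell, near these shares, so this list showed no lean downwards. MYBL2 (-1.03 ± 0.12, adjusted p = 1.04e-09) and FOXM1 (-0.79 ± 0.08, adjusted p = 5.71e-13) fell. Their part in the levels of the mitosis genes was not tested.

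In hSCNPC-P5 both sets were lower than in NeuDet-D6. Of 32 replication genes 20 fell and 6 rose, and of 18 mitosis genes 11 fell and 1 rose, where 30.6% of all genes fell and 28.8% rose. AURKA, the centrosomal Aurora kinase, had 60.1, 54.1 and 56.3 CPM in hSCNPC-P5, against 150.5, 131 and 136 CPM in NeuDet-D6 (-1.28 ± 0.07, adjusted p = 1.35e-23). CENPA (-0.94 ± 0.12, adjusted p = 1.01e-09), CDK1 (-0.90 ± 0.13, adjusted p = 9.64e-08) and CCNB1 (-0.83 ± 0.07, adjusted p = 4.46e-16) fell as well. GINS1 (-0.79 ± 0.07, adjusted p = 4.71e-14) and CDC6 (-0.77 ± 0.07, adjusted p = 1.81e-13) fell most among replication genes. Against that course, CDT1 had 194, 189.6 and 184 CPM in hSCNPC-P5, against 104, 108 and 108 CPM in NeuDet-D6 (0.84 ± 0.07, adjusted p = 5.32e-15), and POLE, the catalytic subunit of the leading-strand polymerase, rose (0.58 ± 0.07, adjusted p = 3.36e-10). CDC20, the 1 mitosis gene that rose (0.20 ± 0.08, adjusted p = 0.0244), lost its call with library totals alone, with no filter on low counts and when all 66 libraries were fitted at once. Of 39 other mitosis genes 30 fell. Cell identity markers moved far at this transition. All 10 neural progenitor markers rose, with sums of 5545 to 5811 CPM in hSCNPC-P5, against 1311 to 1430 CPM in NeuDet-D6. All 7 neuromesodermal markers tested fell, with sums of 3.68 to 4.50 CPM in hSCNPC-P5, against 1363 to 1506 CPM in NeuDet-D6. All 5 epithelial markers fell, with sums of 2.58 to 2.94 CPM in hSCNPC-P5, against 301 to 360.3 CPM in NeuDet-D6. Their part in the result was not tested.

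Between passages 5 and 40 most replication genes rose, while most mitosis genes were not called in either direction. In hSCNPC-P40, 19 of 32 replication genes were higher than in hSCNPC-P5 and 0 lower, while 3 of 18 mitosis genes were higher and 2 lower. Of all genes tested 22.8% were higher and 24.1% lower. ORC1, the origin recognition subunit, had 84.7, 83.7 and 81.7 CPM in hSCNPC-P40, against 47.2, 51.8 and 53.7 CPM in hSCNPC-P5 (0.72 ± 0.07, adjusted p = 1.12e-13). RRM2 (0.61 ± 0.06, adjusted p = 1.29e-13), TYMS (0.31 ± 0.07, adjusted p = 0.000462) and PCNA (0.22 ± 0.08, adjusted p = 0.0155) rose. CENPE (0.69 ± 0.08, adjusted p = 2.57e-10) and CDK1 (0.49 ± 0.13, adjusted p = 0.00144) rose among mitosis genes, and CCNB2 (-0.38 ± 0.07, adjusted p = 1.94e-05) and TOP2A (-0.30 ± 0.08, adjusted p = 0.00125) fell. MKI67 was at 497, 488 and 467 CPM in hSCNPC-P40 and 398, 478 and 470.4 CPM in hSCNPC-P5 and did not pass.

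The rise lay between passages 20 and 30, a comparison chosen after the values were seen. There 30 of 32 replication genes rose and 0 fell, where 19.2% of all genes tested rose and 19.2% fell, with a median change of 0.37. Of 18 mitosis genes 6 rose and 0 fell, with a median of 0.11. CDT1 had 236, 257 and 205 CPM in hSCNPC-P30, against 141, 134 and 125 CPM in hSCNPC-P20 (0.80 ± 0.07, adjusted p = 1.37e-13). ORC1 had 82.9, 84.5 and 87.7 CPM in hSCNPC-P30, against 50.9, 49.5 and 44.1 CPM in hSCNPC-P20 (0.82 ± 0.07, adjusted p = 3.68e-15). The libraries of the 2 passages did not overlap for either gene. Both were named for the largest rises of their set, so this adds no support. PCNA (0.41 ± 0.08, adjusted p = 1.77e-05) and TYMS (0.48 ± 0.08, adjusted p = 5.32e-07) rose with CDT1 and ORC1. Only MCM5 and POLE did not pass. POLE had 196, 178 and 193 CPM in hSCNPC-P30 and 188, 179.6 and 166 CPM in hSCNPC-P20.

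The 6 mitosis genes that rose were BUB1, BUB1B, CDK1, AURKA, CENPE and TPX2. CDK1 (0.49 ± 0.13, adjusted p = 0.00225) and CENPE (0.39 ± 0.08, adjusted p = 7.69e-05) changed most. MKI67 (0.02 ± 0.17, adjusted p = 0.959), TOP2A (-0.08 ± 0.08, adjusted p = 0.447) and CCNB1 (0.10 ± 0.07, adjusted p = 0.253) were not called. In the other lists, 20 of 30 other replication genes rose and 0 fell, and 22 of 39 other mitosis genes rose and 3 fell. The inhibitor CDKN2A (p16) fell (-3.54 ± 0.32, adjusted p = 1.03e-13). Cell identity genes moved at the same passage: NKX6-1 (-3.61 ± 0.20, adjusted p = 6.27e-21), PAX6 (-1.03 ± 0.10, adjusted p = 4.1e-12) and NES (-1.09 ± 0.07, adjusted p = 1.67e-18) fell, and SP5, a WNT target, rose (6.89 ± 0.25, adjusted p = 4.04e-22). The 10 neural progenitor markers summed to between 4112 and 4330 CPM in hSCNPC-P30, against 5954 to 6114 CPM in hSCNPC-P20. Neuromesodermal markers, 2 of 7 of which rose, summed to between 129.8 and 174 CPM in hSCNPC-P30, against 2.56 to 4.02 CPM in hSCNPC-P20. Oligodendrocyte lineage markers, 1 of 5 of which rose, summed to between 469.6 and 516 CPM in hSCNPC-P30, against 295 to 304 CPM in hSCNPC-P20. The part of these changes in the result was not tested.

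In hMN-D6 all 50 genes were lower than in hSCNPC-P10. All 32 replication genes and all 18 mitosis genes fell and 0 rose, where 36.7% of all genes tested fell and 38.5% rose. The median change was -3.04 for replication genes, -5.12 for mitosis genes and 0.08 for all genes. MKI67 had 8.86, 11.3 and 10.5 CPM in hMN-D6, against 465, 432 and 472 CPM in hSCNPC-P10 (-5.51 ± 0.16, adjusted p = 1.46e-14). CDC20 had 2.6, 3.59 and 3.38 CPM in hMN-D6, against 202, 190.1 and 201 CPM in hSCNPC-P10 (-5.98 ± 0.12, adjusted p = 1.07e-21). BIRC5 (survivin), the passenger complex subunit, fell as far (-5.95 ± 0.08, adjusted p = 3.91e-47), and CDK1 (-5.75 ± 0.17, adjusted p = 2.29e-21), TOP2A (-5.42 ± 0.13, adjusted p = 5.92e-16) and CCNB1 (-4.75 ± 0.07, adjusted p = 3.91e-47) followed.

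Replication genes were lost to widely different degrees. As a share of the hSCNPC-P10 mean, hMN-D6 kept a median of 12.5% of a replication gene, from 2.17% of CDT1 to 75.5% of POLE, and a median of 2.98% of a mitosis gene, from 1.61% of CDC20 to 50.6% of NUSAP1. RRM2 had 3.04, 4.06 and 3.23 CPM in hMN-D6, against 125, 121 and 124 CPM in hSCNPC-P10 (-5.18 ± 0.11, adjusted p = 1.76e-31). PCNA had 35.1, 32.3 and 32.8 CPM in hMN-D6, against 277, 268 and 268 CPM in hSCNPC-P10 (-3.06 ± 0.05, adjusted p = 1.05e-45). POLE was at 142, 142 and 153 CPM in hMN-D6, against 198, 180.3 and 199.8 CPM in hSCNPC-P10. The 3 genes thus spanned a near-complete loss, a loss of most of the level and a small decrease.

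By role, the median changes were -4.99 for nucleotide supply, -4.29 for origin licensing and firing, -3.43 for the MCM group, -3.28 for GINS, -2.57 for Okazaki fragment joining, -2.55 for polymerases and primase and -2.34 for the clamp and its loader. Within nucleotide supply the 2 subunits of ribonucleotide reductase differed, with 23.3% of RRM1 and 2.79% of RRM2 left. Within mitosis the medians lay between -5.63 for mitotic entry and exit and -4.97 for centromere and kinetochore, apart from spindle assembly at -3.12, which holds TPX2 and the uncertain NUSAP1. CDT1 (-5.55 ± 0.09, adjusted p = 7.08e-43), TYMS (-4.99 ± 0.11, adjusted p = 1.46e-39), CDC6 (-4.29 ± 0.12, adjusted p = 2.3e-34) and MCM2 (-3.27 ± 0.06, adjusted p = 3e-40) were the other named replication genes. Near the low end of the range, CDT1 and TYMS had an E2F motif in the promoter window, and RRM2, MCM10 and CDC45 did not. Near its high end, POLE and MCM7 had such a motif, and RFC5, PRIM1 and ORC6 did not. A link between the motif and the loss was not tested.

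Every gene is given here as the share of its hSCNPC-P10 mean that remained in hMN-D6. In the MCM group, MCM10 kept 2.88%, MCM5 7.0%, MCM3 7.1%, MCM6 8.48%, MCM2 10.7% and MCM4 11.1%, while MCM8, which acts outside the MCM2 to MCM7 ring, kept 23.1% and MCM7 28.5%. Of the licensing and firing factors, CDC45 kept 3.56%, CDC6 5.21% and ORC1 5.33%, against 23.5% of ORC6. Of the GINS subunits, which travel with the helicase, GINS4 kept 8.23%, GINS3 8.8%, GINS2 12.7% and GINS1 14.2%. PCNA kept 12.3% and the loader subunits RFC3, RFC2, RFC4 and RFC5 13.3%, 20.3%, 20.3% and 26.7%. Among polymerases, POLE2 kept 8.79%, POLD1 15.9%, POLA1 17.5% and the primase subunit PRIM1 24.2%, and POLE and POLE2, 2 subunits of the same enzyme, thus lay far apart. The flap nuclease FEN1 kept 17.9% and LIG1 16.8%, and TYMS 3.20%.

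The mitosis genes were more alike. Setting NUSAP1 aside, they kept between 1.61% and 6.89%. CDC20 (1.61%), BIRC5 (1.64%), AURKB (1.69%) and CDK1 (1.87%) were lowest, and CENPE (6.59%) and AURKA (6.89%) highest. The cyclins CCNB2 and CCNB1 kept 2.23% and 3.82%, MKI67 and TOP2A 2.24% and 2.39%, and TPX2 2.68%. The checkpoint kinases BUB1, BUB1B and TTK kept 2.80%, 3.16% and 3.66%, the Polo kinase PLK1 3.40%, and the centromere and kinetochore proteins CENPF and CENPA 3.17% and 3.19%.

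The other cell cycle lists fell in hMN-D6 too. Of 30 other replication genes 29 fell and 1 rose, of 39 other mitosis genes 39 fell, of 14 genes of G1 cyclins, their kinases and E2F activators 12 fell and 1 rose, and of 13 genes of E2F repressors, pocket proteins and MuvB 12 fell and 1 rose. MYBL2 (-5.40 ± 0.08, adjusted p = 1.84e-45), FOXM1 (-5.11 ± 0.10, adjusted p = 1.24e-37) and E2F1 (-2.44 ± 0.06, adjusted p = 1.43e-35) were among them. CDK inhibitors were divided: CDKN2D (p19) had 51.8, 50.9 and 52.2 CPM in hMN-D6, against 11.8, 11.7 and 14.4 CPM in hSCNPC-P10 (1.99 ± 0.07, adjusted p = 2.23e-30), CDKN2B rose (1.79 ± 0.19, adjusted p = 5.27e-12), and CDKN2C fell (-5.62 ± 0.26, adjusted p = 1.76e-25). The 10 neuronal markers summed to between 12590 and 12790 CPM in hMN-D6, against 1873 to 1911 CPM in hSCNPC-P10, and all 10 rose. Of 10 neural progenitor markers 8 fell and 2 rose, with sums of 1673 to 1732 CPM in hMN-D6, against 5052 to 5307 CPM in hSCNPC-P10.

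**Figure D3:**
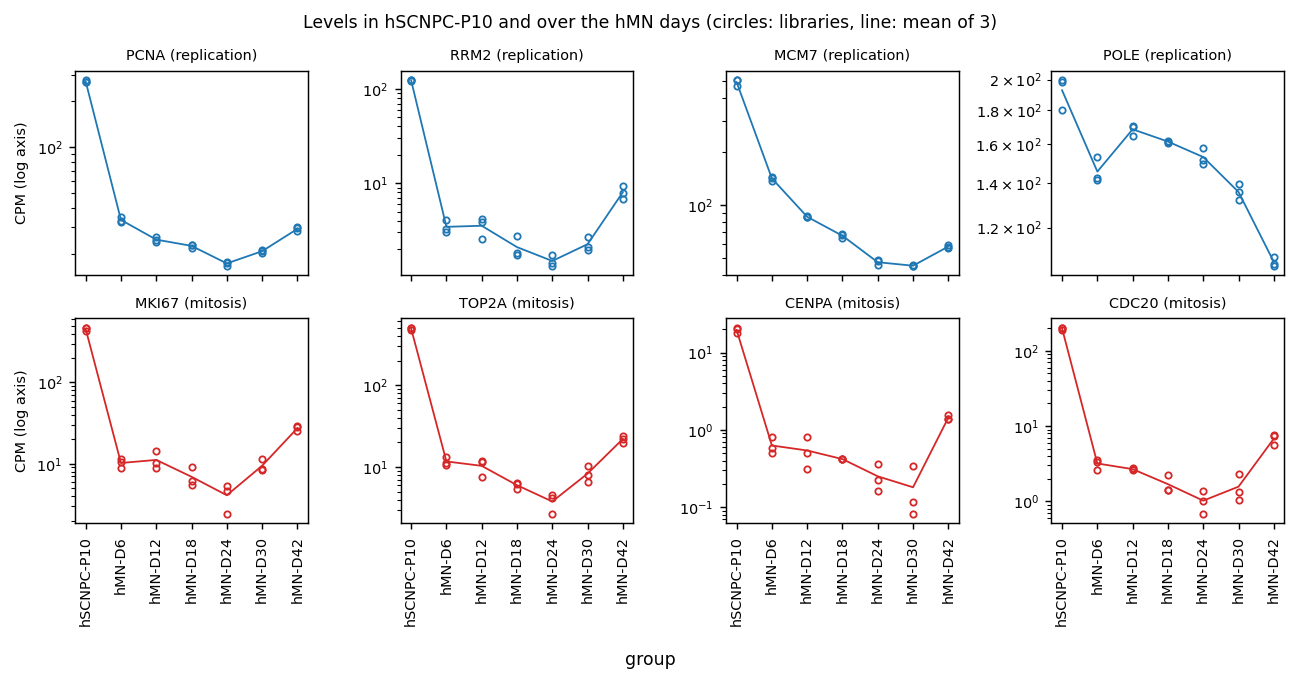
Levels of 4 replication genes (upper row, blue) and 4 mitosis genes (lower row, red) are plotted in CPM on log axes, with 1 circle per library and a line through the means of 3, for hSCNPC-P10 and the 6 hMN days. MKI67, TOP2A and RRM2 have their lowest mean at hMN-D24 and rise to hMN-D42, whereas POLE ends at its lowest hMN value.

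The sums of both sets decreased further until day 24. Over mitosis genes the sum was 88.7 ± 3.97 CPM on day 6, 85.5 ± 13.1 on day 12, 56.4 ± 6.1 on day 18, 43.4 ± 6.13 on day 24, 70.5 ± 9.73 on day 30 and 178 ± 8.48 on day 42. Over replication genes it was 638 ± 3.49, 597 ± 2.94, 558 ± 2.98, 491 ± 15.1, 513 ± 6.11 and 576 ± 6.58 CPM on these days. Of the 22 groups, hMN-D24 had the lowest mean of 20 of 32 replication genes and of 13 of 18 mitosis genes. The turn after day 24 was noticed in these values, and the comparisons with hMN-D24 were added for it.

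In hMN-D24, 18 replication genes were lower than in hMN-D6 and 5 higher, and 16 mitosis genes were lower and 0 higher, where 31.6% of all genes were lower and 32.0% higher. MKI67 had 5.26, 2.42 and 4.59 CPM in hMN-D24, against 8.86, 11.3 and 10.5 CPM in hMN-D6 (-1.30 ± 0.25, adjusted p = 0.000347). BIRC5 (-1.96 ± 0.19, adjusted p = 2.59e-13), AURKB (-1.66 ± 0.25, adjusted p = 1.57e-07), GINS4 (-1.92 ± 0.23, adjusted p = 7.87e-09) and CDC45 (-1.70 ± 0.34, adjusted p = 2.77e-05) fell most. The last rested on few reads, with 13, 1 and 10 counts in hMN-D24 and 14, 23 and 24 in hMN-D6. In hMN-D24, 3 replication and 7 mitosis genes had means under 1 CPM. LIG1 (0.42 ± 0.06, adjusted p = 1.04e-07) and POLE2 (0.52 ± 0.22, adjusted p = 0.0386) were among the 5 that rose, with MCM4, MCM6 and PRIM1, and this count was 2 without hMN-D24 replicate 1 and 3 without hMN-D6 replicate 1.

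By hMN-D30 part of the loss had been regained. Against hMN-D24, 14 replication genes rose and 1 fell, and 12 mitosis genes rose and 0 fell, where 5.98% of all genes rose and 5.90% fell. AURKB (1.42 ± 0.25, adjusted p = 7.87e-05), BIRC5 (1.26 ± 0.20, adjusted p = 8.38e-06) and MCM10, an initiation factor (1.08 ± 0.24, adjusted p = 0.00134), rose, and POLE fell (-0.16 ± 0.04, adjusted p = 0.00859). CDC45 rose as well (1.25 ± 0.35, adjusted p = 0.0132), with 16, 18 and 18 counts in hMN-D30, against 13, 1 and 10 in hMN-D24. MKI67 had 8.67, 8.37 and 11.3 CPM in hMN-D30, against 5.26, 2.42 and 4.59 CPM in hMN-D24 (1.18 ± 0.25, adjusted p = 0.00564). The count of mitosis genes was 7 when all 66 libraries were fitted at once and 8 to 11 with any 1 of the 6 libraries left out. Fewer genes were called in these fits as a whole. Of all genes, 1267 of 21175 rose in the reported fit and 578 of 23595 in that of 66 libraries. With 1 library left out, 733 to 1006 rose. The third hMN-D30 library was high in mesenchymal markers, 8 of which summed to 358 CPM in it, to 109.8 CPM in the lowest hMN-D30 library, and to between 63.8 and 105 CPM in hMN-D24. Without it 8 mitosis genes, 11 replication genes and 733 of all 21667 genes tested rose.

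Against hMN-D6, hMN-D30 had 11 of 32 replication genes lower and 5 higher, and 9 of 18 mitosis genes lower and 0 higher. Of all genes 30.5% were lower and 32.9% higher, so the count of lower replication genes lay near the share of all genes. MCM7 had 45.2, 45 and 45.3 CPM in hMN-D30, against 144, 143 and 136 CPM in hMN-D6 (-1.63 ± 0.05, adjusted p = 3.21e-34). GINS4 (-1.40 ± 0.22, adjusted p = 1.33e-06), CENPA (-1.81 ± 0.40, adjusted p = 9.61e-05), CDC20 (-1.04 ± 0.24, adjusted p = 0.000683) and PCNA (-0.67 ± 0.05, adjusted p = 1.55e-15) fell, GINS3 (0.70 ± 0.18, adjusted p = 0.000663) and POLE2 (0.67 ± 0.22, adjusted p = 0.00745) rose, and MKI67 was not called (-0.12 ± 0.22, adjusted p = 0.668). Scaling by library totals alone raised the count of higher replication genes to 10.

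Between days 30 and 42 both sets rose. In hMN-D42, 23 of 32 replication genes were higher than in hMN-D30 and 2 lower, and 17 of 18 mitosis genes were higher and 0 lower, where 21.8% of all genes tested were higher and 19.9% lower. The median change was 0.37 for replication genes, 1.43 for mitosis genes and 0.00 for all genes. MKI67 had 25.1, 28.3 and 28.8 CPM in hMN-D42, against 8.67, 8.37 and 11.3 CPM in hMN-D30 (1.55 ± 0.19, adjusted p = 5.77e-06). CDC20 had 7.35, 7.57 and 5.53 CPM in hMN-D42, against 1.06, 1.35 and 2.3 CPM in hMN-D30 (2.11 ± 0.20, adjusted p = 2.12e-08). The libraries of the 2 days did not overlap for either gene. CDC20 was among the mitosis genes named for the largest rise, so for CDC20 this adds no support. CDK1 (1.68 ± 0.22, adjusted p = 5.27e-07), TOP2A (1.42 ± 0.16, adjusted p = 2.68e-06) and CCNB1 (1.11 ± 0.09, adjusted p = 3.22e-15) rose too. CENPA had 31, 28 and 35 counts in hMN-D42 and 3, 2 and 8 in hMN-D30 (2.98 ± 0.33, adjusted p = 2.37e-10), so the size of its change is poorly fixed. The 1 mitosis gene not called was NUSAP1.

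RRM2 had 6.79, 9.4 and 7.94 CPM in hMN-D42, against 2.12, 1.96 and 2.69 CPM in hMN-D30, and was 3.58-fold higher (1.84 ± 0.15, adjusted p = 1.14e-12). MCM10 (1.57 ± 0.18, adjusted p = 2.08e-10), CDC6 (0.96 ± 0.15, adjusted p = 3.35e-07) and TYMS (0.93 ± 0.13, adjusted p = 2.68e-08) rose, and MCM2 (0.55 ± 0.08, adjusted p = 6.25e-08) and PCNA (0.49 ± 0.06, adjusted p = 2.43e-10) by less. The other way went the leading-strand polymerase and the ligase. POLE had 105, 106 and 109 CPM in hMN-D42, against 132, 139.6 and 136 CPM in hMN-D30 (-0.35 ± 0.04, adjusted p = 4.4e-09), and LIG1 fell slightly (-0.16 ± 0.06, adjusted p = 0.0241). MCM8, ORC6, RFC4, RFC5, POLE2, PRIM1 and RRM1 did not pass. By role, origin licensing and firing had a median of 0.79 with 4 of 5 called, and the clamp and its loader a median of 0.22 with 3 of 5 called.

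**Figure D4:**
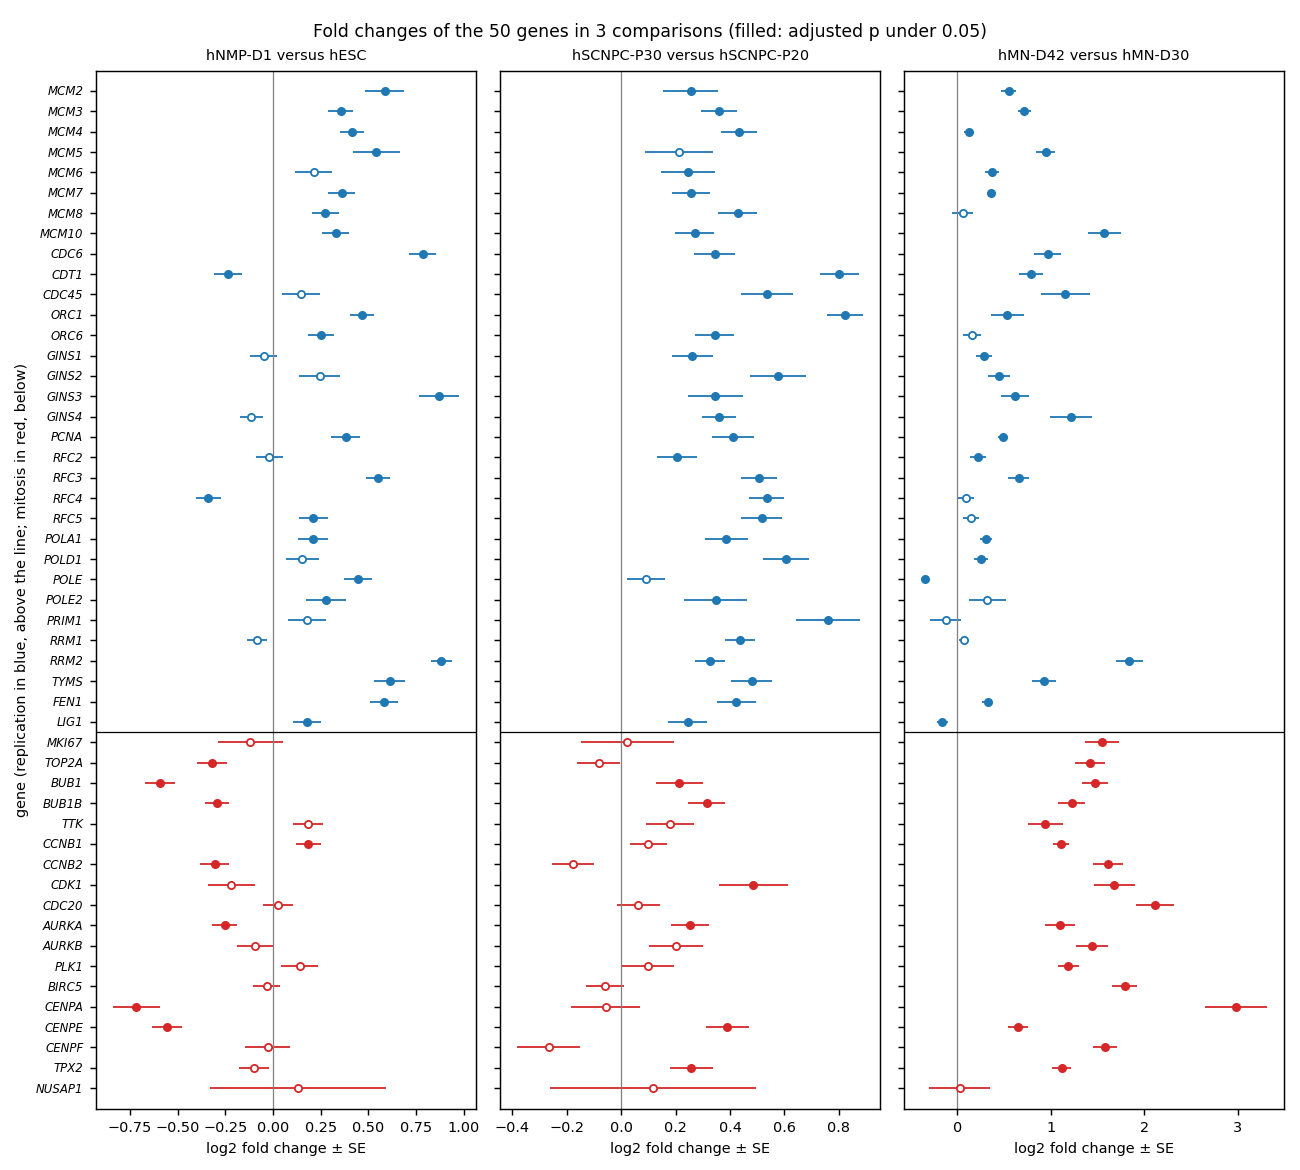
Points give the log2 fold change of each of the 50 genes with its SE, filled where the adjusted p was under 0.05, in hNMP-D1 against hESC, hSCNPC-P30 against hSCNPC-P20 and hMN-D42 against hMN-D30, with replication genes in blue above the line and mitosis genes in red below; each panel has its own x axis. In the left and middle panels 21 and 30 replication genes are filled to the right of 0 against 1 and 6 mitosis genes, and in the right panel 17 of 18 mitosis genes are.

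The rise by day 42 went along with other genes of the cycle. Of 39 other mitosis genes 32 rose and 1 fell, of 30 other replication genes 16 rose and 2 fell, and MYBL2 (1.51 ± 0.11, adjusted p = 1.37e-15) and FOXM1 (1.38 ± 0.13, adjusted p = 7.17e-12) rose. Markers of cells other than neurons rose as well. All 8 mesenchymal markers rose, summing to between 822 and 938 CPM in hMN-D42, against 109.8 to 358 CPM in hMN-D30. Of 8 astroglial markers 6 rose, GFAP among them, and 1 fell (3.56 ± 0.21, adjusted p = 1.87e-19 for GFAP), with sums of 213 to 217 CPM in hMN-D42 and 202 to 224 CPM in hMN-D30. Of 5 oligodendrocyte lineage markers tested, 3 rose and 1 fell, with sums of 102 to 112 CPM in hMN-D42, against 40.1 to 48.7 CPM in hMN-D30. Of 10 neural progenitor markers 5 rose and 0 fell, with sums of 807 to 824 CPM in hMN-D42, against 592 to 613 CPM in hMN-D30. Of 10 neuronal markers 7 fell and 0 rose, with sums of 8872 to 9001 CPM in hMN-D42, against 10220 to 10330 CPM in hMN-D30. The part of these cells in the rise of the cycle genes was not tested. Without the hMN-D30 library highest in mesenchymal markers, which sets the 2 days further apart in these markers, 22 replication and 17 mitosis genes were higher in hMN-D42.

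The return was partial. Against hSCNPC-P10, all 32 replication genes (median -2.61) and all 18 mitosis genes (median -4.06) were lower in hMN-D42, where 38.2% of all genes were lower and 40.6% higher. The median share of the hSCNPC-P10 level in hMN-D42 was 16.6% for replication genes and 6.08% for mitosis genes. MKI67 (-4.08 ± 0.14, adjusted p = 1.12e-13), TOP2A (-4.50 ± 0.12, adjusted p = 1.85e-15), RRM2 (-3.97 ± 0.09, adjusted p = 8.1e-30) and PCNA (-3.24 ± 0.05, adjusted p = 7.71e-47) were all lower, and CDC20 (-4.91 ± 0.11, adjusted p = 3.66e-21), BIRC5 (-4.87 ± 0.07, adjusted p = 4.04e-46), CDT1 (-4.62 ± 0.08, adjusted p = 7.87e-42) and CDC45 (-4.13 ± 0.17, adjusted p = 1.26e-25) were furthest below within their sets. Set beside day 6, mitosis genes stood at -4.29 in hMN-D42 and -5.12 in hMN-D6 relative to hESC, and replication genes at -2.92 and -3.18. MCM7, at 58 ± 1.37 CPM in hMN-D42, remained under its hMN-D6 mean of 141 ± 4.1 CPM, while MKI67, at 27.4 ± 2.00 CPM in hMN-D42, stood above its hMN-D6 mean of 10.2 ± 1.23 CPM. These day 42 to day 6 values were not tested, and comparisons that share hMN-D30 or hSCNPC-P10 libraries are not independent of each other.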

How the data were processed

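Bulk RNA was sequenced in 66 libraries of 22 groups. Per the study's methods and the submitters' processing notes, poly(A) libraries were read as paired ends, reads were aligned to hg38 with HISAT2 2.1.0, and the authors deposited raw featureCounts 1.5.3 counts per Ensembl gene in 2 tables over the same 60603 genes, 48 libraries in one and 18 hMN libraries in the other. The GENCODE release and the strand setting are not given in the sources used here. Counts were fitted with edgeR 4.0.16 (R 4.3.3, limma 3.58.1) by robust quasi-likelihood tests with TMM scaling after filterByExpr, in 1 fit of 48 libraries (21597 genes) and 1 of the 18 hMN and 3 hSCNPC-P10 libraries (21175 genes), with Benjamini-Hochberg adjustment over all genes at 0.05 and SE taken as the log2 fold change over the square root of F. The code was tested on simulated data. Gene symbols came from GENCODE and matched 99.44% of IDs. No 2 libraries held identical counts.

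The members and lists were chosen with earlier results of these data known. Fold changes are given for 10 genes named for the purpose (MCM2, PCNA, CDC6, RRM2, TYMS, MKI67, TOP2A, CDK1, CCNB1 and CDC20), for up to 2 called genes with the largest change per set, direction and comparison, and for up to 4 called genes per other list. Genes named in words beyond these were chosen after their values were seen, as were 5 of 14 comparisons (hNMP-D1 with hESC, hNMP-D3 with hNMP-D2, hSCNPC-P30 with hSCNPC-P20, hMN-D24 with hMN-D6 and hMN-D30 with hMN-D24). Alternatives were RLE scaling, library totals alone, other passages in place of hSCNPC-P10, DESeq2 1.42.0, no filter or a 1 CPM filter, the 2 groups alone, all 66 libraries, each library left out, genes sharing exons left out, a replicate block, another pseudocount and medians.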

Additional observations from a re-analysis of the deposited data

How the results depend on the processing

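No called fold change of a named gene changed sign under any alternative run. In hNMP-D4 against hESC, 8 replication genes were higher and 11 lower, where 26.7% and 27.6% of all genes were. Without hNMP-D4 replicate 3, 10 were higher and 8 lower, where 5198 and 5763 of all 22057 genes tested were. No lean of the set is read from either pair of counts. In fold changes of named genes, 1707 values kept their status, called or not, under other settings, 26 lost a call and 14 gained one. With 1 library left out, 1172 kept their status, 52 lost a call and 12 gained one. Counts of called members moved by over 1.5 times in 32 values and not in 504 under other settings. Of the mean levels of the sets, 169 moved by more than the spread between libraries under other settings and 146 did not, and 13 moved and 365 did not with 1 library left out. The loss of all 32 replication genes in hMN-D6 and in hMN-D42 held in every fit run, also with hSCNPC-P5, P20, P30 or P40 in place of P10. In those fits 17 to 18 mitosis genes fell. For hMN-D42 against hMN-D30, 21 to 22 replication genes and 17 mitosis genes were higher with 1 library left out, and for hSCNPC-P30 against hSCNPC-P20 26 to 28 replication genes were. Depth limits the low genes of hMN libraries, where CENPA, CDC45 and CDK1 rested on few counts.

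Counts of called genes that moved by over 1.5 times are given with the reported count in brackets; the cause was not tested except where fewer samples or genes entered. With library totals alone, replication genes higher numbered 3 in hSCNPC-P5 against NeuDet-D6 (6) and 10 in hMN-D30 against hMN-D6 (5), those lower 4 in hNMP-D1 against hESC (2) and 1 in hMN-D42 against hMN-D30 (2), mitosis genes higher 0 in hSCNPC-P5 against NeuDet-D6 (1), 0 in hNMP-D1 against hESC (1), 2 in hNMP-D3 against hNMP-D2 (4) and 3 in hSCNPC-P30 against hSCNPC-P20 (6), and those lower in the last 2 (0). With no filter, mitosis genes higher were 0 in hNMP-D4 against hESC (1) and 0 in hSCNPC-P5 against NeuDet-D6 (1), mitosis genes lower 1 in hSCNPC-P30 against hSCNPC-P20 (0), and replication genes higher 3 in hMN-D24 against hMN-D6 (5). With the 1 CPM filter, which removes NUSAP1, mitosis genes higher were 0 in hNMP-D4 against hESC (1) and 2 in hNMP-D1 against hESC (1), mitosis genes lower 2 in hSCNPC-P30 against hSCNPC-P20 (0), and replication genes lower 1 in hSCNPC-P40 against hSCNPC-P5 (0). With the 2 groups alone, in hNMP-D4 against hESC 7 replication (11) and 10 mitosis genes (16) were lower, mitosis genes higher were 7 in NeuDet-D1 against hNMP-D4 (11) and 3 in hNMP-D1 against hESC (1), and 2 mitosis genes were lower in hSCNPC-P30 against hSCNPC-P20 (0). In a fit of all 66 libraries, mitosis genes higher were 0 in hSCNPC-P5 against NeuDet-D6 (1), 2 in hNMP-D1 against hESC (1) and 7 in hMN-D30 against hMN-D24 (12), and replication genes lower 1 in hMN-D42 against hMN-D30 (2) and 0 in hMN-D30 against hMN-D24 (1). With DESeq2, mitosis genes higher were 0 in hNMP-D4 against hESC (1), replication genes lower 1 in hMN-D42 against hMN-D30 (2) and replication genes higher 3 in hMN-D24 against hMN-D6 (5). Without genes that share exons, 4 replication genes (8) and 0 mitosis genes (1) were higher in hNMP-D4 against hESC.

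The difference replication minus mitosis was 0.42 in hNMP-D1 and 0.63 in hSCNPC-P30 from medians over genes and 0.65 in hSCNPC-P30 without genes that share exons. With a pseudocount of 2, medians, and without those genes it was 1.77, 2.22 and 2.13 in hMN-D6, 2.02, 2.78 and 2.62 in hMN-D24 and 1.31, 1.67 and 1.48 in hMN-D42. With TTTGAA as the CHR motif, 1 replication promoter held it (2).

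With 1 library left out, counts ranged as follows. For hNMP-D4 against hESC, replication lower was 7 to 15 (11, 7 without hNMP-D4 replicate 2) and mitosis higher 0 to 1. For NeuDet-D1 against hNMP-D4, mitosis higher was 7 to 13 (11). For hSCNPC-P5 against NeuDet-D6, replication higher was 3 to 7 (6, 3 without NeuDet-D6 replicate 3) and mitosis higher 0 to 1. For hNMP-D1 against hESC, mitosis higher was 1 to 2 and replication lower 1 to 2. Mitosis lower was 0 to 1 for hSCNPC-P30 against hSCNPC-P20, and replication lower 0 to 1 for hSCNPC-P40 against hSCNPC-P5 and 1 to 2 for hMN-D42 against hMN-D30. For hMN-D24 against hMN-D6, replication higher was 2 to 5 (5). Replication minus mitosis in hMN-D42 was 1.35 to 1.39.

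Groups share replicate numbers, and whether these pair the samples was not stated. Over 42 sample pairs the correlations of same-numbered samples ran from -0.03 to 0.041, and 18 of 42 samples correlated best with their own number. These values showed no clear pairing but cannot exclude it, since each is taken from deviations within groups of 3 libraries. With a replicate block, 9 replication genes were higher (8 without it) in hNMP-D4 against hESC and 2 mitosis genes lower (3 without it) in NeuDet-D1 against hNMP-D4.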
